A study of Homo sapiens with 7 samples.

Results

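The mitochondrial ribosome is the separate ribosome that makes the few proteins encoded by mitochondrial DNA, most of them subunits of the respiratory chain. Its proteins are encoded in the nucleus, made in the cytosol and imported, and they join mitochondrial ribosomal RNAs to form a large subunit, where peptide bonds are made, and a small subunit, where the messenger is decoded. Many have counterparts in bacterial ribosomes, and others are particular to mitochondria. The genes described here are those whose symbol is MRPL (large subunit) or MRPS (small subunit) with a number and at most one of the letters A to C. The rule finds 76 of the 18817 genes listed in any library, 47 of the large subunit and 29 of the small subunit. It uses names alone and no measured value. All 76 had a value in every library, and all 76 passed the filter on low counts (at least 10 counts in at least 3 libraries), as did 13566 genes in all.

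The RNA came from H4 cells, an established human neuroglioma line. In all 7 groups they carried Cry2Olig-PKR (opto-PKR), in which a plant-derived protein domain that clusters in blue light is joined to PKR. PKR is a kinase of the translation factor eIF2, whose phosphorylation starts the integrated stress response, and the study set out to follow that response through time. Cells in wells of a glass-bottom plate received continuous blue light for 0, 60, 120, 240, 480, 600 or 720 min and were lysed, and each time gave 1 library. No time was repeated, and an unlit culture at the later times was not analysed here, so light and time in the plate cannot be told apart. The labels do not say whether the line is 1 clone. Of the markers of a glioma line, VIM (682 to 886 CPM) and CD44 (495 to 703 CPM) were abundant. SOX2 had 15.9 to 54.5 CPM and OLIG2 5.06 to 20.5 CPM. NES did not pass 1.65 CPM, and GFAP, S100B, FABP7 and CHI3L1 were not listed in any library. The blood gene PTPRC did not pass 0.353 CPM, the epithelial gene EPCAM 0.256 CPM and the endothelial gene PECAM1 0.824 CPM. Among other blood and epithelial genes, LYZ had 1.41 to 6.6 CPM and KRT8 10.8 to 22.4 CPM. KRT18 (96.2 to 183 CPM) and MAP2 (5.31 to 65 CPM) were also expressed.

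The libraries were made by a form of CEL-Seq2, which counts transcripts by their 3' ends with molecular identifiers (UMIs). Levels are given as CPM, scaled by the effective size of each library, and are not divided by length, because a transcript is counted by its end only. They are shares of the RNA of many cells, so fewer cells of a kind and less RNA per cell cannot be told apart. The 6 complete tables held 7048253 to 8911818 transcripts. The 480 min table held 5266123 because its alphabetical list of genes ends with NME1-NME2, which comes after the last member. The best covered member, MRPL3, reached 2808 UMIs of the 4096 possible. The correction for UMIs shared by several molecules put MRPL3 at 4739 transcripts at 480 min. The levels of abundant members thus rest partly on that correction.

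Summed over the 76 genes, the level was 8880, 7719, 7772, 8041, 8543, 8584 and 9525 CPM after 0, 60, 120, 240, 480, 600 and 720 min of light, in that order. The sum was thus lowest in the first hours of light and highest at the end, and no time between 0 and 720 min had a sum above that of 0 min. Against 0 min the summed fold was 0.869 at 60 min (95% counting interval 0.860 to 0.879) and 1.07 at 720 min (1.06 to 1.08). These intervals cover counting error only, because 1 library stands for each time. The fold at 60 min was 0.877 with size factors computed by the RLE method, 0.896 from UMIs without the collision correction and 0.847 from reads.

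The low sums were shared by most of the genes. At 60 min 65 of the 76 genes lay below their 0 min level. A counting interval wholly below 1 was found in 46 (60.5%), and one above 1 in 3 (3.95%). Of all genes tested, 22.3% had an interval below 1 and 21.7% above 1 at that time. At 240 min, 43 members (56.6%) had an interval below and 19 (25%) above, against 33.8% and 34.2% of all genes. At 480 min 35 members (46.1%) were below and 20 (26.3%) above. Of the 7708 tested genes with a value in that table, 32.5% and 32.8% were. At 720 min the order was turned round, with 10 (13.2%) below and 32 (42.1%) above, against 27.4% and 27.8% of all genes. The members were more abundant, with a median of 91.0 CPM at 0 min against 27.9 CPM over all genes. These shares were not matched for level. The 6 comparisons with 0 min share that one library, so its own error enters each of them. The 60 and 120 min libraries also had the fewest reads per UMI over the members, 1.58 and 1.59, against 1.70 at 0 min, and the part of this in the sums was not tested.

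**Figure D1:**
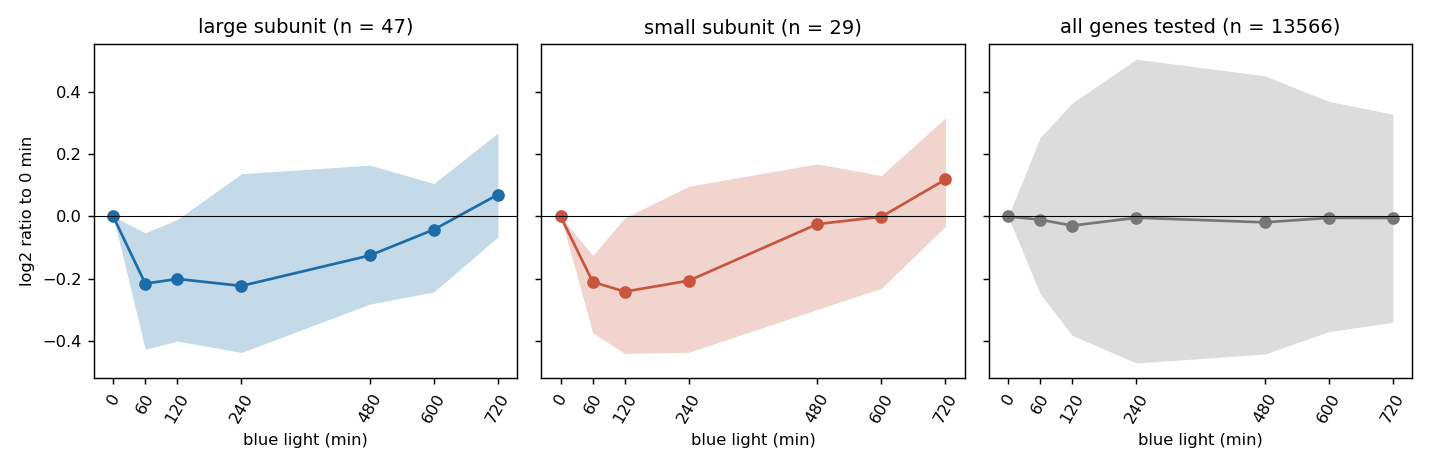
Log2 ratio to 0 min (vertical axis) against minutes of blue light for the 47 large subunit genes, the 29 small subunit genes and the 13566 genes tested, of which 7708 have a value at 480 min. Points are medians over genes and bands run between the quartiles over genes; both subunits have medians below 0 at 60, 120 and 240 min and above 0 at 720 min, while the median over all genes stays near 0.

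The genes of both subunits followed the same course in outline. Large subunit genes summed to 5823, 5195, 5185, 5438, 5659, 5712 and 6275 CPM from 0 to 720 min in the order of the times. Small subunit genes summed to 3057, 2523, 2587, 2603, 2884, 2872 and 3249 CPM. The lowest sum was at 120 min for the large subunit and at 60 min for the small one, and the highest was at 720 min for both. Against 0 min, the large subunit stood at 0.934 (0.922 to 0.946) at 240 min and the small subunit at 0.851 (0.837 to 0.867). At 720 min the large subunit stood at 1.08 (1.06 to 1.09) and the small subunit at 1.06 (1.04 to 1.08).

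The balance between the subunits shifted a little with them. The ratio of large to small subunit transcripts was 1.91, 2.06, 2.00, 2.09, 1.96, 1.99 and 1.93 in the order of the times. Its counting interval was 2.06 to 2.12 at 240 min and 1.90 to 1.96 at 720 min, against 1.88 to 1.93 at 0 min. The intervals of 240 and 0 min do not overlap, and those of 720 and 0 min do, with subunits assigned by symbol. The median gene does not show the same gap: at 240 min the median log2 ratio was -0.22 in the large subunit and -0.21 in the small, so the gap is in the sums and not in the medians. The members are not replicates of a subunit, and no test of the subunit difference was made.

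Some symbols do not match the place of the protein. In the human mitochondrial ribosome, MRPS18A and MRPS30 sit in the large subunit despite their names, and MRPS36 is now regarded as a part of the 2-oxoglutarate dehydrogenase complex. Assigned by structure, the large to small ratio was 2.35 at 240 min and 2.14 at 720 min, against 2.05 in the unlit library. So assigned, the interval of 720 min (2.11 to 2.18) does not overlap that of 0 min (2.02 to 2.085) either, and the small subunit stood at 0.824 of its 0 min sum at 240 min.

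Levels and swings differed between the members. The most abundant large subunit genes were MRPL3 (362 to 479 CPM over the 7 libraries), MRPL47 (280 to 403 CPM) and MRPL32 (275 to 334 CPM), whose protein must be cleaved in the mitochondrion before it joins the ribosome. Among small subunit genes, MRPS24 (231 to 338 CPM), MRPS23 (181 to 244 CPM) and MRPS15 (136 to 235 CPM) led. At the low end were MRPL54 (10.0 to 17.9 CPM), MRPL55 (17.6 to 32.1 CPM), MRPS28 (24.2 to 33.4 CPM) and MRPS18A (20.3 to 44.4 CPM). The ratio of a gene's highest to its lowest library had a median of 1.44 and ran up to 2.45 in MRPS31, and 8 of the 76 passed 2. The lowest level was that of 60 min in 29 of the 76 genes and that of 720 min in 0, and the highest level was that of 720 min in 31 and of 0 min in 22. None of the genes had its highest level at 60 or 120 min.

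For tests, a straight line and then a parabola were fitted to each gene over the 7 times with edgeR's quasi-likelihood test, and p-values were adjusted over all 13566 genes. The trend is the fitted log2 change from 0 to 720 min. The bend says how far the fitted log2 level halfway, at 360 min, lies above the average of the 2 fitted ends. A negative bend marks a gene whose fitted level halfway was below that average. A gene was called at an adjusted p under 0.05.

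No member was called for the trend (0 of 76, against 6.86% of all genes), although 13 (17.1%, against 23.1% of all genes) had an unadjusted p under 0.05. DESeq2, run as an alternative, called 4 (5.26%, against 11.6% of all genes). The members' shares were thus below those of all genes. The nearest was MRPL2, a protein close to the site of peptide bond formation. Its level was 91.8, 82.7, 72.1, 86.7, 93.7, 123.1 and 154.8 CPM at the 7 times, low at 120 min and highest at 720 min. Its trend was 0.81 ± 0.21 (SE, edgeR adjusted p = 0.0549). MRPS10, of the small subunit head, had a trend of 0.57 ± 0.15 (edgeR adjusted p = 0.0564), and MRPL24, near the exit of the peptide tunnel, had one of 0.59 ± 0.16 (edgeR adjusted p = 0.0603). These 3 genes and MRPL21 are those DESeq2 called. Without the 0 min library the edgeR test called 6 members (7.89%, against 11% of all genes), with MRPL2 among them (adjusted p = 0.0217).

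The bend was called downward in 17 members, which is 22.4% of them, against 13.7% of all genes. It was called upward in 2, or 2.63%, against 17.5% of all genes. The members and all genes were not matched for level here either. All members were fitted on 7 libraries, while genes past the end of the 480 min table were fitted on 6. Of the 76 bends, 51 were below 0, and their median was -0.23, against 0.01 over all genes. The median was -0.21 in the large subunit and -0.23 in the small one. The 17 consist of 11 of the 47 large subunit genes (MRPL2, MRPL11, MRPL12, MRPL17, MRPL23, MRPL28, MRPL34, MRPL37, MRPL51, MRPL54 and MRPL55) and 6 of the 29 small subunit genes (MRPS2, MRPS12, MRPS15, MRPS18A, MRPS26 and MRPS34). The upward 2 are MRPS30 and MRPS31. Genes with a bacterial counterpart made up 8 of 30 in the large and 3 of 16 in the small subunit of those called downward, and genes particular to mitochondria 3 of 17 and 3 of 13.

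The count of downward bends changed when single libraries were left out and when base composition was corrected for. It was 3 without the 0 min library, where 5.37% of all genes were called downward, and 3 without the 240 min library, where 3.72% were. It was 6 after a correction for transcript GC content that was added after seeing the data, where 9.20% of all genes were, and 5 of these 6 are among the 17. In each of these settings the share of the 76 members called downward was near or below that of all genes. With all libraries and no correction it was 22.4%, against 13.7%. The members' median bend was -0.07 without the unlit library, -0.23 without the 240 min library and -0.21 after the GC correction. Of the called members not described singly below, MRPL12 lost its call in 3 of the 15 alternatives tried. MRPL17 and MRPL51 lost theirs in 4, and MRPL34 and MRPL37 in 5.

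**Figure D2:**
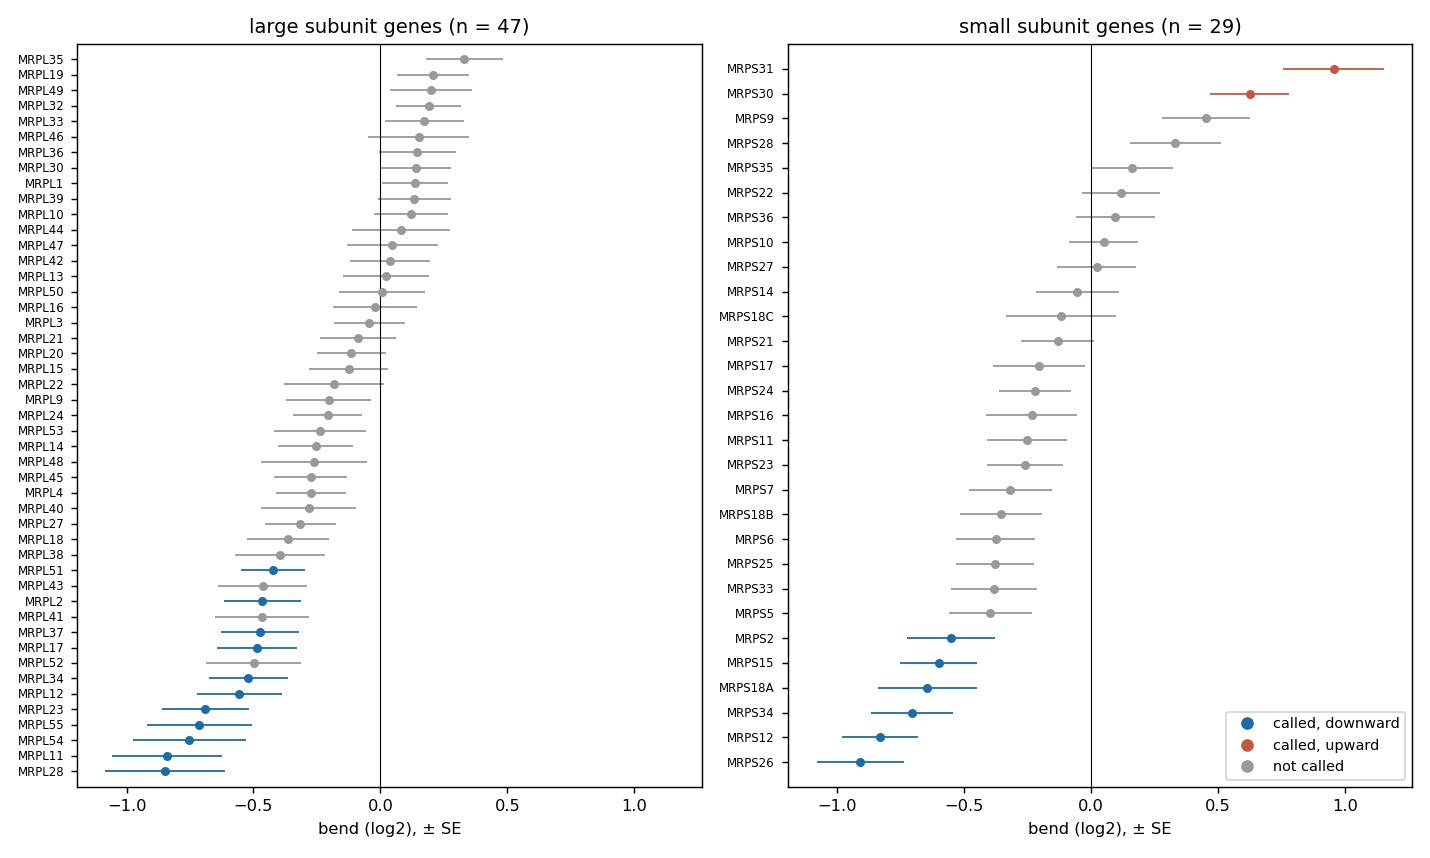
Bend of each of the 47 large subunit genes (left) and 29 small subunit genes (right) in log2, with its standard error, ordered by value. Blue points are the 17 genes called downward, red points the 2 called upward (MRPS31 and MRPS30) and grey points the other genes.

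The promoters of the genes with strong bends are shown to place them on the genome and to show the sites they hold, as RefSeq gives them on build GRCh38.p14. Nuclear genes for mitochondrial proteins are known to carry sites for GABP (an ETS factor), NRF1 and YY1. Each window runs from 120 bases before to 30 bases after the gene's start, 5′ to 3′ on the gene's strand. Capitals mark CCGGAAG (ETS or GABP core), AAGATGG (YY1 core), GCATGCG (NRF1 core) or TGATGNAA (the ATF4 composite site, ATF4 being a factor of the integrated stress response), on either strand. The windows are chr13:40771161-40771310, minus strand (MRPS31), chr5:44808827-44808976, plus strand (MRPS30), chr20:3045932-3046081, plus strand (MRPS26), chr19:38930824-38930973, plus strand (MRPS12), chr16:1773105-1773254, minus strand (MRPS34), chr11:66438819-66438968, minus strand (MRPL11), and chr16:370509-370658, minus strand (MRPL28).
MRPS31: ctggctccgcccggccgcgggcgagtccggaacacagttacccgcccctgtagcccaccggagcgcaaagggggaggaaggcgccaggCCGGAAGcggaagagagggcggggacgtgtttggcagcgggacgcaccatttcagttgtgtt
MRPS30: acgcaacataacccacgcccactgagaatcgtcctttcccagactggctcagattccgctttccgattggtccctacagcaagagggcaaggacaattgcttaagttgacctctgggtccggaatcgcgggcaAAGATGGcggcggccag
MRPS26: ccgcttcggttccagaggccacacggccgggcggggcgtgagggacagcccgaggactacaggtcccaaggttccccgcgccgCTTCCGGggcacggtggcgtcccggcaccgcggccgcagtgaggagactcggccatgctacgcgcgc
MRPS12: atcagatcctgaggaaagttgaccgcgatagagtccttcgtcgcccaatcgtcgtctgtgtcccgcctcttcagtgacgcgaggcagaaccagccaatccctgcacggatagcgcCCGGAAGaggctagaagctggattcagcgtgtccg
MRPS34: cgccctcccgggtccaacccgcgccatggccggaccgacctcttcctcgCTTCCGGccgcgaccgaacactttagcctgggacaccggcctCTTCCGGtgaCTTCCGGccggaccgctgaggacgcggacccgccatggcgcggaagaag
MRPL11: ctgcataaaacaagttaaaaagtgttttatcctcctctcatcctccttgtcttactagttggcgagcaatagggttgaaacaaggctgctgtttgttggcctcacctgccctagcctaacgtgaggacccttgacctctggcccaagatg
MRPL28: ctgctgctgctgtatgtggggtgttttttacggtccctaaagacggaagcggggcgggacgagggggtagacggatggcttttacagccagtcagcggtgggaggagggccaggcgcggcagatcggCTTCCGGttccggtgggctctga

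In these windows MRPS31, MRPS26, MRPS12, MRPS34 and MRPL28 hold the ETS core, MRPS30 holds the YY1 core, and MRPL11 holds none of the 4 motifs. Promoters were matched for 67 of the 76 members. In windows of 250 bases before to 50 after the start, the ETS core was found in 41.8% of the members, against 18.9% of the promoters of genes tested and 10.7% of all RefSeq promoters of that length. The YY1 core was found in 34.3% of the members, against 7.69% and 6.06%. The NRF1 core was in 10.4% of the members, against 6.59% and 4.13%, and the ATF4 composite site in 1.49%, against 1.75% and 3.67%. Also scanned were GGGCGG (SP1), CCAAT (NFY) and CACGTG (E-box). They were in 61.2%, 29.9% and 8.96% of the members, against 69.3%, 37.6% and 10.2% of the promoters of genes tested. Over all RefSeq promoters of that length the shares were 44.6%, 35.7% and 7.43%. Of members called downward, 7 of 15 matched held the ETS core and 4 held the YY1 core, and of members with no bend call 20 of 50 held the ETS core and 18 held the YY1 core. A match of letters is a description of the window and not a bound site.

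The downward bends with the 3 smallest p-values were those of MRPS12, MRPS26 and MRPS34, all of the small subunit. MRPS12 encodes the protein beside the decoding centre of the small subunit. Its level was 68.4, 57.0, 49.4, 43.6, 42.2, 56.2 and 75.6 CPM from 0 to 720 min. It was low from 120 to 480 min and above its 0 min level at 720 min. Its bend was -0.83 ± 0.15 (SE, edgeR adjusted p = 0.00249), and it was called in all 15 alternatives tried, the GC correction included.

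MRPS26, a protein particular to mitochondrial small subunits, had 44.1, 38.3, 29.7, 26.2, 21.9, 29.02 and 39.5 CPM. Its 480 min level was 0.497 of its 0 min level (counting interval 0.418 to 0.588), the only one of the 76 to reach 2-fold lower at that time. Its bend was -0.91 ± 0.17 (edgeR adjusted p = 0.00300), and after the GC correction -0.46 (adjusted p = 0.0654). MRPS34, also particular to mitochondria and a gene of inherited Leigh syndrome, had 161.1, 120.5, 107.4, 86.2, 109.7, 116.1 and 142.3 CPM. It was lowest at 240 min and still under its 0 min level at 720 min. Its bend was -0.71 ± 0.16 (edgeR adjusted p = 0.00773). That call was lost without the 0 min library (adjusted p = 0.0537) or the 240 min library (0.0557) and after the GC correction (0.419).

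MRPS15, which binds the ribosomal RNA of the small subunit, stood at 135.6 CPM at 240 min, its lowest library, and at 235.0 CPM at 720 min, against 218.0 CPM at 0 min. Its bend was -0.60 ± 0.15 (edgeR adjusted p = 0.0112), and it was lost without the 0 min (0.0681) or the 240 min library (0.0719). MRPS2 reached its lowest level only at 600 min, with 131.4 CPM, against 241.8 CPM at 0 min. Its 720 min level of 186.5 CPM was 0.771 of that at 0 min (0.720 to 0.826). Its bend of -0.55 ± 0.17 (edgeR adjusted p = 0.0287) was lost without the 0 min (0.15), 120 min (0.0503), 480 min (0.0562) or 720 min library (0.342) and after the GC correction (0.419).

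In the large subunit the deepest bends were those of MRPL28 and MRPL11. MRPL11 is a protein of the stalk base, where translation factors bind. Its level was 82.1, 59.5, 42.7, 40.0, 59.0, 65.7 and 79.5 CPM at the 7 times. MRPL28 had 81.8, 50.2, 43.3, 39.8, 55.4, 74.8 and 78.6 CPM. Both were lowest at 240 min, at 0.488 (0.429 to 0.555) and 0.487 (0.427 to 0.553) of their 0 min level, and both were back near that level at 720 min. They were the only members at least 2-fold lower than at 0 min at 240 min. The bend was -0.84 ± 0.22 for MRPL11 (edgeR adjusted p = 0.0129) and -0.85 ± 0.24 for MRPL28 (0.0195). Both calls were lost without the 0 min (0.102 and 0.173) or the 240 min library (0.083 and 0.112), and that of MRPL28 after the GC correction (0.12).

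MRPL23, a protein of the tunnel exit, had 78.3, 57.3, 49.9, 43.8, 51.6, 58.2 and 68.0 CPM, and its bend was -0.69 ± 0.17 (edgeR adjusted p = 0.0106). The low genes MRPL54 and MRPL55 had bends of -0.75 ± 0.22 and -0.71 ± 0.21 (edgeR adjusted p = 0.0239 and 0.0210). The calls of these 3 genes were lost without the 0 or the 240 min library and after the GC correction, and that of MRPL55 also without the 720 min library (0.157). That the 17 genes had a fitted level at 360 min below the average of the fitted ends follows from how they were called. Their 720 min levels lay on both sides of those at 0 min: 6 had an interval above 1 at 720 min and 3 had one below 1.

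**Figure D3:**
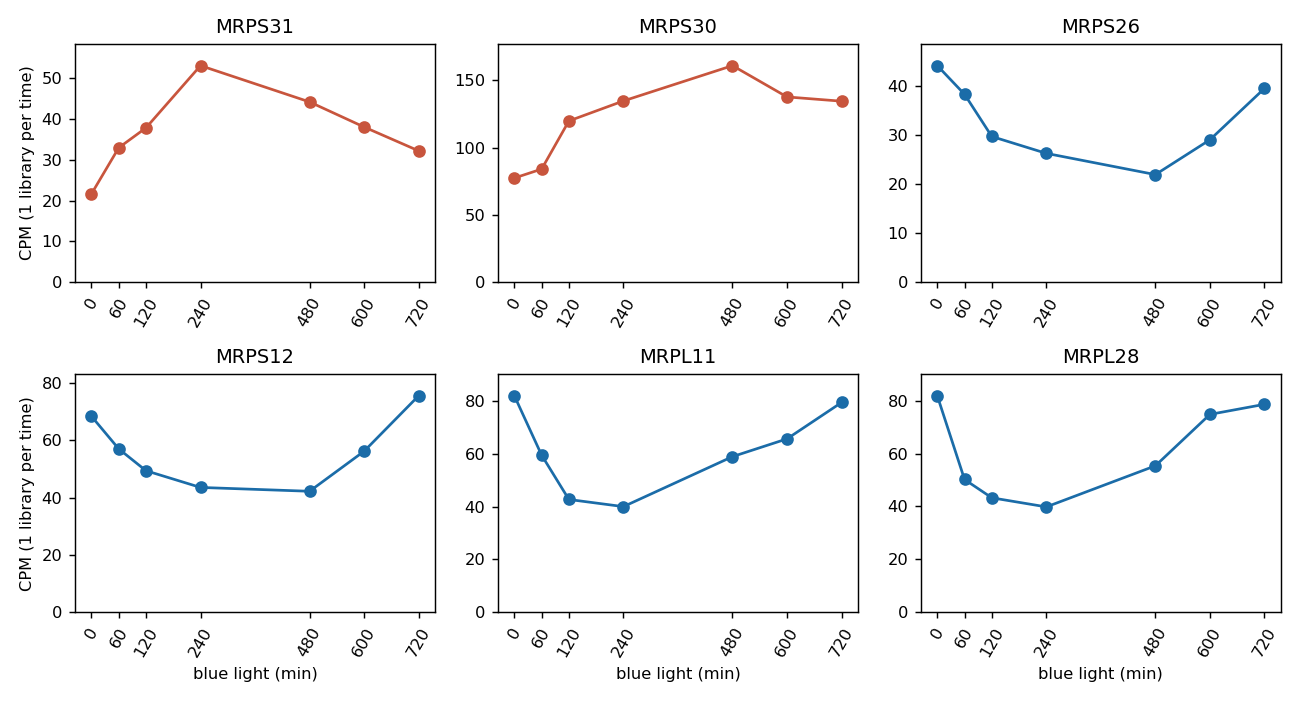
Level in CPM (vertical axis, from 0) against minutes of blue light for the 2 members called with an upward bend (red: MRPS31, MRPS30) and 4 called with a downward bend (blue: MRPS26, MRPS12, MRPL11, MRPL28), 1 library per time. MRPS31 is highest at 240 min and MRPS30 at 480 min, while the 4 blue genes are lowest at 240 or 480 min.

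MRPS31 and MRPS30 went the other way. MRPS31 encodes a small subunit protein particular to mitochondria. Its level was 21.7, 33.0, 37.9, 53.2, 44.2, 38.1 and 32.2 CPM from 0 to 720 min. Every lit library was above the 0 min library, and the highest was that of 240 min, at 2.45 times the 0 min level (2.07 to 2.92). Its bend was 0.96 ± 0.20 (SE, edgeR adjusted p = 0.00469). The call was kept after the GC correction (bend 0.57, adjusted p = 0.0448) and lost without the 240 min library (adjusted p = 0.0544).

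The count of MRPS31 is uncertain, since the row of its pseudogene MRPS31P5, whose sequence is close to it, had 30, 49, 101, 128, 102, 72 and 34 transcripts. That row was highest at 240 min too, with a bend of 1.81 ± 0.34 (edgeR adjusted p = 0.00287). The labels do not say how reads that match both were counted. The pseudogene MRPL45P2 had a bend of -0.01 ± 0.30 (edgeR adjusted p = 0.985).

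MRPS30, a large subunit protein in the ribosome's structure, had 77.4, 84.0, 119.8, 134.7, 160.9, 137.6 and 134.5 CPM. It was above its 0 min level at every later time, though its 60 min interval included 1 (0.971 to 1.21). It was highest at 480 min, at 2.08 times its 0 min level (1.90 to 2.28). At 720 min it was still at 1.74 times its 0 min level (1.57 to 1.92), the highest of the 76. Its bend was 0.62 ± 0.15 (edgeR adjusted p = 0.0107), lost without the 240 min library (0.0565) and kept after the GC correction (0.0332).

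The 3 MRPS18 genes are paralogs whose products occupy different places. MRPS18A, in the large subunit, had 32.3, 29.5, 20.3, 25.8, 26.9, 32.2 and 44.4 CPM, and its bend was -0.64 ± 0.20 (edgeR adjusted p = 0.0262). It was lost without the 0 min (0.111) or the 240 min library (0.0544), without the 480 min (0.051) or the 720 min library (0.113) and after the GC correction (0.234). MRPS18B, a small subunit protein, was lowest at 60 min with 85.8 CPM and highest at 720 min with 153.5 CPM, and its bend of -0.36 ± 0.16 was not called (edgeR adjusted p = 0.109). MRPS18C, the counterpart of the bacterial protein, had 44.3 CPM at 60 min and 88.8 CPM at 720 min, against 73.9 CPM at 0 min. Its 60 min ratio of 0.599 (0.522 to 0.687) was the lowest of any member at that time, and its bend of -0.12 ± 0.22 was not called (edgeR adjusted p = 0.699). MRPS36 stayed between 52.5 and 62.6 CPM in the 7 libraries.

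Some genes had the most extreme ratios at 240 or 720 min. MRPS6 had between 84.9 and 116.7 CPM in the 6 later libraries, against 151.2 CPM at 0 min. Its 720 min level was 0.600 of that at 0 min (0.546 to 0.659), the lowest of the 76, and its trend was -0.64 ± 0.20 (edgeR adjusted p = 0.101). MRPL43 was at 0.714 (0.645 to 0.789) and MRPL22 was at 40.7 CPM at 720 min, against 50.9 CPM at 0 min. On the upper side at 720 min, MRPL2, one of the 17 called downward, was at 1.69 (1.54 to 1.85) and MRPL24 at 1.56 (1.45 to 1.67). The bend call of MRPL2 was lost in 6 of 15 alternatives, the GC correction among them (edgeR adjusted p = 0.32). At 240 min the highest ratio in the large subunit was that of MRPL35, at 1.47 (1.32 to 1.63), followed by MRPL47, at 403.5 CPM against 298.4 CPM at 0 min.

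The bends of the members varied with the base composition of their transcripts, as did those of all genes. Over the 76 members, the rank correlation of the bend with the GC content of the gene's principal transcript was -0.69, and over the 11908 genes tested with a match it was -0.44. All points come from the same 7 libraries. The 25 members of lowest GC content (35.0% to 45.8%) had a median bend of 0.08, with 0 called downward and 1 upward. The 26 in the middle had a median of -0.24, with 3 downward and 1 upward, and the 25 of highest GC content (53.0% to 71.9%) one of -0.48, with 14 downward and 0 upward.

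All tested genes in the same GC ranges had medians of 0.30, 0.01 and -0.33, so the members' medians were lower in each range. From the lowest to the highest range, 4.63%, 10.7% and 25.7% of all genes were called downward, and 30.2%, 15.2% and 5.71% upward. The members' single upward call among 25 in the lowest range stands beside the 30.2%. MRPS31 has 39.7% GC and MRPS30 46.4%, while MRPS26 has 63.4%, MRPL28 60.3% and MRPS12 58.4%. MRPL11 has 50.8%, close to the members' median of 49.6%. The rank correlation of GC content with the log2 ratio over the members was -0.30, -0.55, -0.59, -0.57, -0.34 and -0.16 for the 6 times from 60 to 720 min. Over all matched genes it was -0.335, -0.37, -0.37, -0.40, -0.26 and -0.06. With transcript length the bend had a rank correlation of 0.19 over the members and 0.27 over all matched genes. The part of base composition in the bends beyond the corrected values above was not tested.

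**Figure D4:**
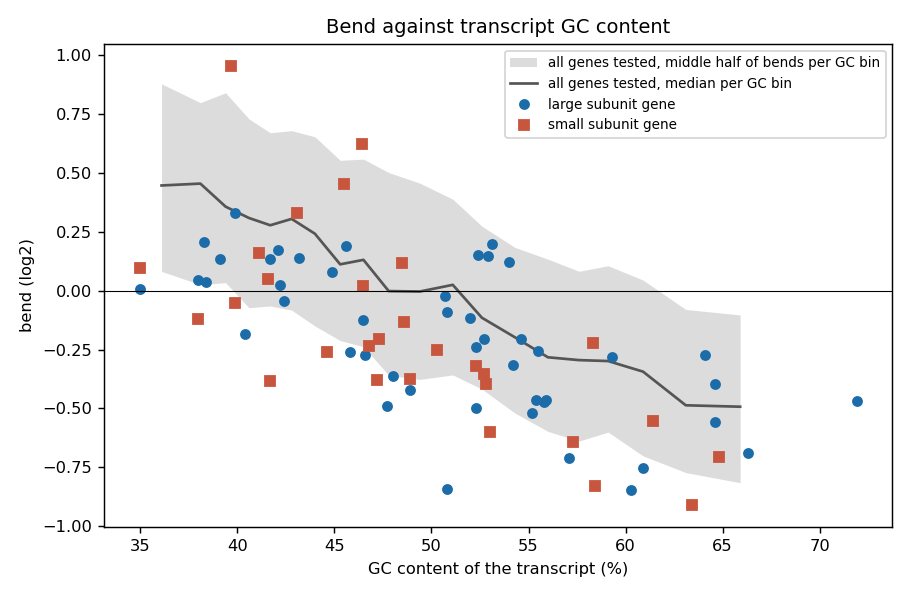
Bend in log2 (vertical axis) against GC content of the transcript in percent for large subunit genes (blue circles) and small subunit genes (red squares). The grey line and band give the median and the quartiles of the bends of all matched genes in 20 GC bins; members with 53.0% GC or more include 14 of the 17 genes called downward.

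Other genes of the same machinery were counted for comparison. Of 7 mitochondrial ribosomal proteins with other symbols, 2 (28.6%, against 13.7% of all genes) were called downward and 0 upward. AURKAIP1, of the small subunit, had 174.6, 137.1, 118.9, 98.5, 125.3, 147.7 and 191.0 CPM, lowest at 240 min, with a bend of -0.80 ± 0.15 (edgeR adjusted p = 0.00287). GADD45GIP1, of the large subunit, had a bend of -0.62 ± 0.14 (0.0067). Both calls were lost after the GC correction, and that of GADD45GIP1 also without the 0 min library.

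Factors that work on the mitochondrial ribosome were counted in the same way, beside the 17.5% upward and 13.7% downward of all genes. Of 12 mitochondrial translation factors, 4 (33.3%) were called upward and 1 (8.33%) downward, with a median bend of 0.30. GFM2, which helps to recycle ribosomes, had a bend of 0.89 ± 0.18 (edgeR adjusted p = 0.0041), and GUF1, the back-translocating factor, one of 0.68 ± 0.17 (0.0108). TUFM, the elongation factor that brings in aminoacyl-tRNA, was called downward at -0.67 ± 0.18 (0.0142). It is fitted on the 6 complete libraries, since its name lies past the end of the 480 min table. The calls of GUF1 and TUFM were lost without the 0 or the 240 min library and after the GC correction.

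Of 22 assembly factors, 5 (22.7%) were called upward and 1 (4.55%) downward, with a median bend of 0.14. The upward share is close to that of all genes. The genes called include METTL15, a methyltransferase of the small subunit RNA, with a bend of 0.76 ± 0.17 (edgeR adjusted p = 0.0059), and MTERFD1 (0.66 ± 0.18, 0.0162), while MPV17L2 was called downward (-0.62 ± 0.15, 0.0102). Of 17 mitochondrial tRNA synthetases 2 (11.8%) were called upward, NARS2 at 0.91 ± 0.17 and WARS2 at 0.82 ± 0.22 (edgeR adjusted p = 0.0027 and 0.0154), and 0 downward. The calls of MTERFD1 and WARS2 were lost without the 0 or the 240 min library, and that of MPV17L2 without the 240 or the 720 min library. Those of METTL15, WARS2 and MPV17L2 were lost after the GC correction. MTERFD1 was followed in 14 of the 15 alternatives and has no GC-corrected value.

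Of 12 regulators of mitochondrial gene expression, 3 (25.0%) were called upward and 1 (8.33%) downward, against 17.5% and 13.7% of all genes. GABPA, the DNA-binding subunit of GABP, had 43.8, 49.1, 50.8, 64.1, 57.7, 44.4 and 29.1 CPM, with a bend of 0.85 ± 0.16 (edgeR adjusted p = 0.0028, lost after the GC correction). PPARGC1A, the coactivator PGC-1alpha, was low throughout, at 8.4 CPM at 240 min and 1.5 CPM at 720 min, against 3.1 CPM at 0 min. Its bend on the 6 complete libraries was 1.96 ± 0.38 (0.0031), lost without the 240 min library. ESRRA, a nuclear receptor that works with it, was called downward at -0.66 ± 0.17 (0.0122), a call lost without the 0, 240 or 720 min library and after the GC correction.

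Nuclear genes of complex I, part of which is made by the mitochondrial ribosome, gave mostly downward calls. Of 38 matched by symbol, 17 (44.7%, against 13.7% of all genes) were called downward and 1 (2.63%, against 17.5%) upward. The median bend of the 38 was -0.48. NDUFB7 had 109.0, 59.1, 42.4, 38.4, 47.9, 54.8 and 85.7 CPM, with a bend of -1.34 ± 0.22 (edgeR adjusted p = 0.0019). NDUFA13 and NDUFS6 had bends of -1.02 ± 0.17 and -0.71 ± 0.14 (0.0020 and 0.0033). These 3 calls were kept in all 15 alternatives. The other bend calls of the 38 were not followed through them. Of the 38, NDUFA4 and its relative NDUFA4L2 are not established parts of complex I. The trend was called in 1 of the 38, NDUFA4L2, against 6.86% of all genes. It stayed under 5 CPM, and its trend of 1.91 ± 0.49 (adjusted p = 0.0498) was lost in 10 of 14 alternatives. No gene in the libraries was labelled chrM, so transcripts of the mitochondrial genome were not analysed here.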

How the data were processed

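The 7 CEL-Seq2 libraries, 1 per time, were analysed. Per the submitters' processing notes, reads were handled with BWA on build hg19, with no version or annotation given. The authors deposited expected counts per gene as reads, UMIs and transcripts; the transcripts equal the UMIs corrected for collisions among 4096 UMIs. The column of barcode 4, the primer named in the labels, was used, and 95 other columns were not. Transcript counts were rounded to whole numbers, and ERCC rows, 0.00596% to 0.0124% of gene reads in the complete tables, were left out.

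edgeR 4.0.16 was run on genes that had 10 or more counts in 3 or more libraries (TMM, robust quasi-likelihood F test, Benjamini-Hochberg over all genes, threshold 0.05). Fits used 7 libraries for genes within the 480 min table and 6 for those past its end. The spread is the residual around the fitted shape and may be technical. The SE is the effect divided by the square root of F. Log2 ratios used a prior count of 2; folds and exact binomial 95% intervals come from counts without it, cover counting error only and treat collision-corrected counts as plain counts. The code was tested on simulated data.

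Members and gene lists were chosen with earlier results of these data known. Genes were named by rule: every member called for the trend, up to 4 per direction and subunit by bend p, extremes of level (3 highest, 2 lowest) and of ratio at 240 and 720 min (2 each way), 5 by place in the ribosome, and up to 3 called genes per list. MRPS10, MRPL21 and the full list of called members were named after their values were seen. Transcript GC and length come from GENCODE 29 and promoters from RefSeq. Alternatives were RLE, no filter, at least 50 counts, UMIs, reads, rank of time, DESeq2, each library left out, subunits by structure and, added later, a GC correction in 20 bins.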

Additional observations from a re-analysis of the deposited data

How the results depend on the processing

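Counts of 17 downward and 2 upward bends among the members held within 1.5 times with RLE, no filter, at least 50 counts, UMIs, reads, rank of time, DESeq2 and without the 60, 120, 480, 600 or 720 min library. With 1 library left out, called members ran between 3 and 20, downward between 3 and 18, upward between 0 and 2, downward large subunit genes between 0 and 12 and small between 2 and 6; bends over all genes ran between 1320 and 4307, trends between 135 and 1481, and members' trends between 0 and 6. The GC correction gave 8 called members (6 downward, 3 in each subunit), 2 trends and 2650 bends over all genes. DESeq2 gave 4 members' trends and 1572 over all genes, against 0 and 930. The summed log2 ratio at 240 min was -0.0474 from reads, against -0.10, in the large subunit, and -0.18 from UMIs, -0.26 from reads and -0.28 by structure, against -0.23, in the small. At 720 min it was 0.14 from reads, against 0.11, in the large subunit, and 0.0597 by structure, against 0.0879, in the small. With 1 library left out, the bend of MRPS18C ran from -0.21 (480 min) to 0.24 (0 min), and that of MRPS36 was -0.36 after the GC correction; neither was called. For these differences the cause was not tested. No paired analysis was possible because each time has 1 library.

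Every member had at least 50 counts in 1 or both libraries of each comparison with 0 min. No time was repeated, and the residual spread also holds any misfit of the parabola. The part of depth in the calls was not tested.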
